A study of Mus musculus with 15 samples.

Results

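The genes described here encode the parts of elastic fibres, and they were taken as a fixed set of 10: Eln, Fbn1, Fbln1, Fbln2, Fbln5, Mfap2, Mfap4, Mfap5, Lox and Loxl1. Every probe set that the array annotation gives to 1 of these genes alone was used, which gave 19 of the 45037 non-control probe sets of the array and covered 9 of the 10 genes. No probe set was assigned to Fbn1 alone in this annotation, so Fbn1 was not analysed here. Of the 19 probe sets, 16 had a mean signal above 100 over the 15 arrays and were tested, 1 of them, Eln 1420854_at, only through the dysplasia arrays, and all 9 genes kept at least 1. The rule that assigned probe sets to the genes used no measured value, but the genes were chosen with earlier results of these data known.

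The study asked which transcripts change in the lung of mice that express c-Raf-1 under the surfactant protein C promoter, which directs the transgene to respiratory epithelium. Dysplasia, the group labelled B, came from dysplastic foci of these SP-C/c-raf mice. The transgenic group, labelled C, was lung tissue of normal appearance from the same dysplasia-bearing mice aged 5 to 7 months. The non-transgenic group, labelled D, was lung of littermates without the transgene, aged 7 to 10 months, and all mice were on a C57BL/6 background. The transgenic tissues came from 5 mice and the controls from another 5, per the methods. Each group had 5 samples, cut by laser from frozen sections and, per the methods, pooled within 1 animal. Each was on an array of its own, and a value below is the signal of a probe set on a linear scale. Age and the transgene cannot be told apart between non-transgenic lung and the other groups.

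The mean signal per array was 692 to 775, and 44.1% to 49.9% of probe sets were above 100. The 5' signal of actin as a share of its 3' signal, which reflects how intact the RNA was, was 57.1% at the median of the dysplasia arrays, 38.9% for transgenic and 31.0% for non-transgenic arrays. By Xist and Y-linked transcripts, 4 of 5 non-transgenic arrays were female, against 1 of 5 transgenic arrays, and the array of dysplasia 4 carried both kinds of transcript. The title of transgenic 2 gives unaltered tissue while another of its labels gives tumor, and it was used as its title says. The 7 gene calls of dysplasia against transgenic tissue given below were the same in number without transgenic 2 and dysplasia 4, with Xist as a covariate and with the actin ratio as a covariate. Markers of alveolar type 2 cells were bright on all arrays, with a summed signal of 131452 to 218600 on dysplasia arrays, 120669 to 196489 on transgenic arrays and 109702 to 144261 on non-transgenic arrays.

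Elastic fibres give the lung its recoil. Elastin, secreted as tropoelastin, forms their core, which is laid down on a scaffold of fibrillin microfibrils that also carry microfibril-associated glycoproteins. Fibulins bind both and help to join them, and enzymes of the lysyl oxidase family link the elastin chains to each other. In the lung these proteins are made mostly by fibroblasts, smooth muscle and, in part, mesothelial and endothelial cells, and most of the elastin is laid down during the growth of the alveoli.

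In dysplasia the elastin transcript was up-regulated while most transcripts for the parts that surround and cross-link elastin were down-regulated. In microdissected tissue fewer cells of a type and less RNA per cell cannot be told apart. With the brightest tested probe set of each gene, Eln was higher and Fbln1, Fbln5, Mfap2, Mfap4, Lox and Loxl1 were lower in dysplasia than in transgenic tissue, at an adjusted p under 0.05. Fbln2 and Mfap5 did not pass the test. These are 1 gene higher and 6 lower of 9, while over all 11603 genes tested 18.6% were called higher and 21.0% lower in this comparison. Against non-transgenic tissue the counts were again 1 higher and 6 lower of 9, beside 24.7% and 26.0% of all genes. Both comparisons use the same dysplasia arrays. The median log2 change of the 9 genes was -0.77 and -0.68 in these comparisons, beside -0.01 and -0.01 over all genes. Between transgenic and non-transgenic tissue 0 of the 9 genes passed (limma, adjusted p under 0.05), and 1 of them had an unadjusted p under 0.05. In that comparison 1.71% of all genes were called and 14.7% had an unadjusted p under 0.05.

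**Figure D1:**
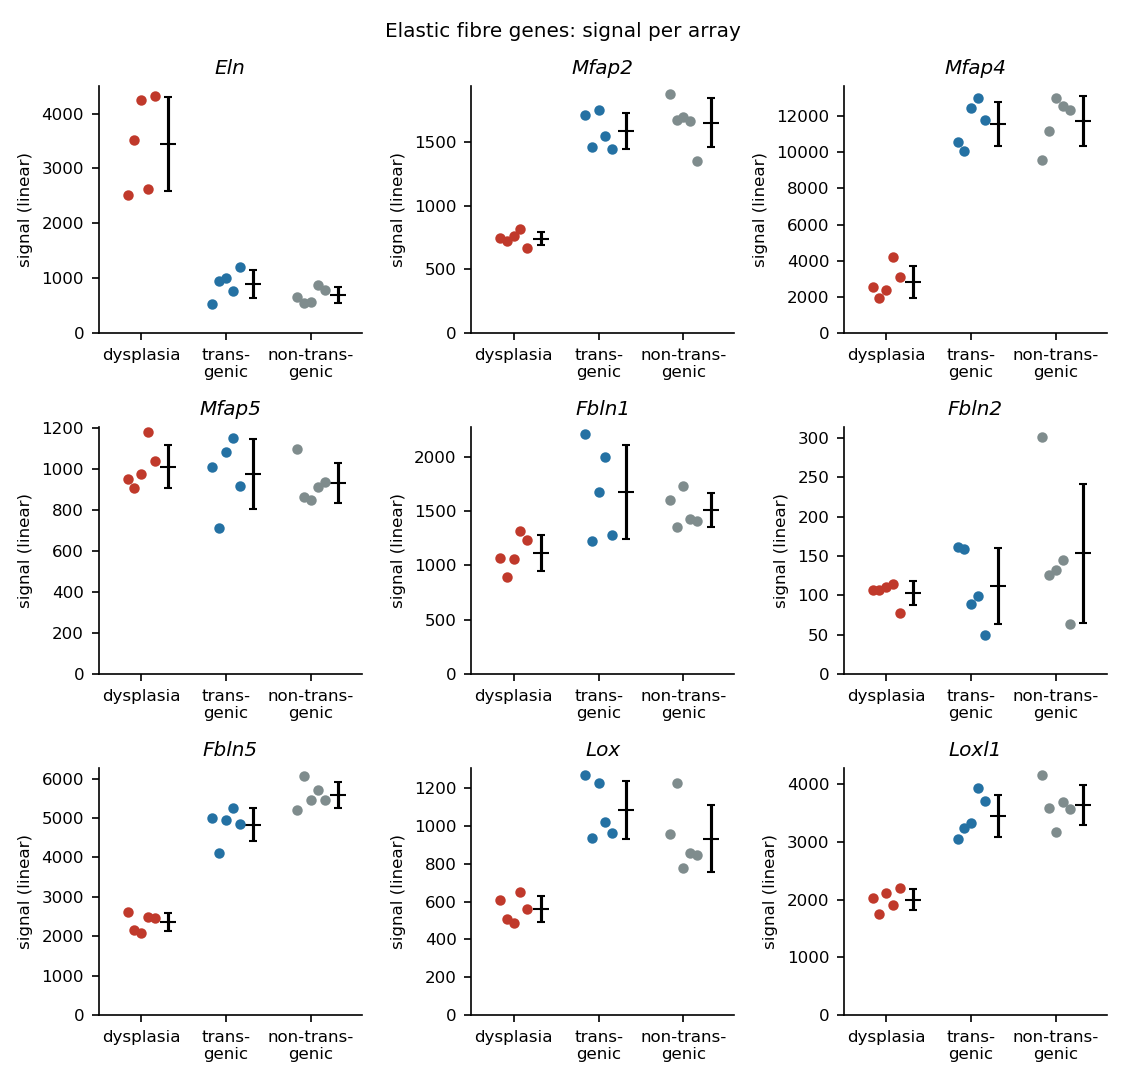
Signal of the brightest probe set of each of 9 elastic fibre genes on every array (linear scale, axes from 0), with dysplasia on the left, transgenic in the middle and non-transgenic tissue on the right. Points are arrays and the bars give the mean and SD of 5 arrays. All 5 dysplasia arrays lie above all others for Eln and below all others for Fbln5, Mfap2, Mfap4, Lox and Loxl1.

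Promoter sequences from the RefSeq table of promoters (GRCm38.p6) are shown for Fbln5 and Mfap2, which are among the genes that fell with no overlap against both groups. The table covers 250 bases before to 50 after a gene start. Entries of 5 of the 10 genes were used, Fbn1, Mfap2, Fbln1, Fbln2 and Fbln5, and Lox was left out of this search. The windows shown are chr12:101819070-101819369 on the minus strand for Fbln5 and chr4:141010431-141010730 on the plus strand for Mfap2, 5′ to 3′, with matches to the GC box GGGCGG in capitals.
Fbln5: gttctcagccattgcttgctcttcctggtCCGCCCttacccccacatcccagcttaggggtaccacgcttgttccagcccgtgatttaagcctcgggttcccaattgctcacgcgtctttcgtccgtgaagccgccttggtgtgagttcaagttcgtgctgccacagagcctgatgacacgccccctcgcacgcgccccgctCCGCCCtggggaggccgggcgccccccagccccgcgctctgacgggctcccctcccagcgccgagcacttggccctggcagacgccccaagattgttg
Mfap2: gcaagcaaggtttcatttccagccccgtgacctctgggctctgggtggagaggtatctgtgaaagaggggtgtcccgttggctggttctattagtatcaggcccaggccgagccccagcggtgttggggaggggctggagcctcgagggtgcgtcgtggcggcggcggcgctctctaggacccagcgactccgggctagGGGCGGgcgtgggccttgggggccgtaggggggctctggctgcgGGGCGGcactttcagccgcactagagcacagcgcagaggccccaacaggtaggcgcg
Both strands were searched for the GC box GGGCGG, the TATA box TATAAA, the AP-1 site TGACTCA and the CArG box. Each of the windows holds 2 GC boxes, on the opposite strand in Fbln5, and none of the other motifs. A GC box is found in 35.7% of the 32851 promoter windows of this length, TATAAA in 13.6%, TGACTCA in 5.20% and the CArG box in 1.63%. A second start of each gene in the table, at chr12:101818435-101818734 and chr4:141010174-141010473, has no match to any of the 4 motifs. GC content was 65.7% in the Fbln5 window and 68.0% in the Mfap2 window, against a median of 52.7%.

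Eln encodes tropoelastin. On probe set 1420855_at its signal was 2508, 3513, 4250.1, 2626 and 4313 in dysplasia 1 to 5, against 533, 943, 1000.1, 757 and 1200.0 in transgenic 1 to 5. The non-transgenic arrays gave 662, 552, 572, 882 and 792. Every dysplasia array was above every other array, and the transgenic and non-transgenic arrays overlapped. The mean was 3442 ± 859 in dysplasia, 887 ± 253 in transgenic tissue and 692 ± 142 in non-transgenic tissue (SD, n = 5 each). The log2 change of dysplasia against transgenic tissue was 1.91 (SE 0.22, adjusted p = 6.94e-05), and the difference by array number lay between 1.73 and 2.13 in 5 of 5 numbers. Against non-transgenic tissue it was 2.22 (SE 0.19, adjusted p = 3.86e-06). Transgenic against non-transgenic tissue gave 0.31 (95% CI -0.13 to 0.75, adjusted p = 0.603), so no difference was detected, and changes within that interval remain possible.

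The other Eln probe set, 1420854_at, was annotated to the same sequence record and was dim. It read 178, 643, 359, 127 and 296 in dysplasia, against 115, 231, 145, 89.1 and 78.2 in transgenic and 98.4, 109.9, 24.7, 66.4 and 11.0 in non-transgenic tissue. Dysplasia was above every non-transgenic array on this probe set and overlapped with transgenic tissue. Its mean over the 10 arrays outside dysplasia was 96.8, so it passed the signal limit of 100 only through the dysplasia arrays. Its values are therefore a description with no test, and it is left out of the counts of probe sets.

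Mfap4, a microfibril-associated glycoprotein that binds elastin, had the largest fall among the 9 genes, in both comparisons. It read 2523, 1945, 2363, 4208 and 3090.0 in dysplasia, against 10582, 10081, 12428, 12997 and 11788 in transgenic and 9599, 11199.5, 13004, 12582 and 12318 in non-transgenic tissue. The highest dysplasia array, number 4, stayed well below the lowest array of the other groups. The dysplasia mean of 2826 ± 875 was 24.4% of the transgenic mean of 11575 ± 1226 and 24.1% of the non-transgenic mean of 11741 ± 1371 (SD, n = 5 each). The log2 change was -2.06 (SE 0.18, adjusted p = 1.29e-05) against transgenic and -2.08 (SE 0.18, adjusted p = 5.78e-06) against non-transgenic tissue. Transgenic and non-transgenic tissue differed by -0.02 on the log2 scale (95% CI -0.26 to 0.22).

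Mfap2 encodes MAGP-1, which binds fibrillin. It read 743, 721, 759.7, 815 and 671 in dysplasia, against 1710.5, 1463, 1753, 1550.4 and 1444 in transgenic and 1879, 1670.0, 1697, 1669 and 1348 in non-transgenic tissue. Dysplasia did not overlap with either group, and its mean of 742 ± 53.0 was 46.8% of the transgenic mean of 1584 ± 141 and 44.9% of the non-transgenic mean of 1653 ± 192 (SD, n = 5 each). Mfap2 had a log2 change of -1.04 (SE 0.09, adjusted p = 1.2e-05) against transgenic and -1.10 (SE 0.10, adjusted p = 6.55e-06) against non-transgenic tissue. A dimmer probe set, 1447833_x_at, gave -0.56 against transgenic (adjusted p = 0.262) and -0.86 against non-transgenic tissue (adjusted p = 0.0107). The first of these did not pass in 19 of 20 alternative settings. It passed only without transgenic 3, which read 40.5 beside 198 to 293 on the other transgenic arrays, with a change of -0.89 (adjusted p = 0.0131).

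Mfap5 encodes MAGP-2, a near relative of MAGP-1, and was not called lower in either comparison. Its 2 probe sets, annotated to the same transcript, gave different results. On the brighter one, 1418454_at, the signal was 951, 908, 974, 1179 and 1035 in dysplasia, against 1006, 710.1, 1079, 1149 and 915 in transgenic tissue and 1096, 860.3, 848, 909 and 936 in non-transgenic tissue. The groups overlapped, with a log2 change of 0.06 against transgenic (95% CI -0.22 to 0.35, adjusted p = 0.764) and 0.11 against non-transgenic tissue (95% CI -0.11 to 0.33, adjusted p = 0.401). On 1449082_at the signal was 586, 663, 820.1, 751 and 843 in dysplasia, against 402, 468, 521, 452 and 469 in transgenic tissue and 616, 393, 347, 461 and 461 in non-transgenic tissue. There dysplasia lay above every transgenic array and overlapped only with non-transgenic 1. The log2 change of this probe set was 0.60 (SE 0.11, adjusted p = 0.00176) against transgenic and 0.64 (SE 0.15, adjusted p = 0.00456) against non-transgenic tissue.

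Of the fibulins, Fbln5 and Fbln1 fell and Fbln2 did not pass the test. Fibulin-5 binds tropoelastin and lysyl oxidase-like 1, and in mice its loss leaves elastic fibres disrupted. It read 2619.9, 2154, 2093, 2497 and 2463 in dysplasia, against 5004, 4125, 4964, 5258 and 4839 in transgenic and 5197, 6074, 5457, 5703 and 5465 in non-transgenic tissue. Each dysplasia array was below all arrays of both other groups, with a dysplasia mean that was 48.9% of the transgenic and 42.4% of the non-transgenic mean. Fbln5 had a log2 change of -1.02 (SE 0.10, adjusted p = 2.5e-05) against transgenic and -1.22 (SE 0.09, adjusted p = 1.74e-06) against non-transgenic tissue. Fbln5 was also the single member with an unadjusted p under 0.05 between transgenic and non-transgenic tissue, with a log2 change of -0.21 (95% CI -0.40 to -0.01) that did not pass after adjustment (adjusted p = 0.372). A probe set of Fbln5 below the signal limit, 1446377_at, was not tested and read at most 32.7 in dysplasia, 57.8 in transgenic tissue and 70.7 in non-transgenic tissue.

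Fbln1 encodes a fibulin of elastic fibres and basement membranes. On 1422540_at it read 1066, 897, 1056, 1319 and 1233 in dysplasia, against 2209.7, 1224, 1672, 1999 and 1279.7 in transgenic and 1606, 1357, 1732, 1426 and 1413 in non-transgenic tissue. Dysplasia overlapped with transgenic tissue, where numbers 2 and 5 were low, and lay below every non-transgenic array. Fbln1 had a log2 change of -0.54 (SE 0.17, adjusted p = 0.0325) against transgenic and -0.43 (SE 0.12, adjusted p = 0.0118) against non-transgenic tissue. Against transgenic tissue the call did not hold without dysplasia 1, 2 or 3 or transgenic 1, 3 or 4 (adjusted p 0.0618 to 0.0834), nor without the signal limit (0.0521). The probe set 1439688_at gave -0.60 (adjusted p = 0.00509) and -0.39 (adjusted p = 0.0509), and 1451119_a_at gave -0.63 (adjusted p = 0.15) and -0.45 (adjusted p = 0.196) in the same comparisons. With the array number as a block 1451119_a_at passed against transgenic tissue (adjusted p = 0.00422), as it did with the actin ratio as a covariate (0.0069) and without transgenic 5 (0.0108).

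Fbln2, a fibulin that binds fibrillin and elastin, was close to the signal limit. It read 107, 107, 111, 115 and 77.0 in dysplasia, against 161, 159, 88.6, 99.1 and 49.6 in transgenic tissue and 301, 126, 132, 145 and 63.6 in non-transgenic tissue. The groups overlapped and the log2 change was -0.03 (95% CI -0.46 to 0.40, adjusted p = 0.937) against transgenic and -0.32 (95% CI -0.84 to 0.21, adjusted p = 0.316) against non-transgenic tissue. No difference was detected, and changes within these intervals remain possible. Its other probe set, 1438375_at, read under the limit on every array and was not tested.

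Both cross-linking enzymes were lower in dysplasia. Lox encodes lysyl oxidase, a copper enzyme that oxidises lysines of elastin and collagen. It read 608, 506, 485, 652 and 561 in dysplasia, against 1269, 939, 1231, 1020.3 and 962 in transgenic tissue and 957, 1231, 781, 856 and 849 in non-transgenic tissue. No dysplasia array reached the lowest array of either other group. Lox had a log2 change of -0.89 (SE 0.12, adjusted p = 0.000173) against transgenic and -0.68 (SE 0.13, adjusted p = 0.00139) against non-transgenic tissue. The dimmer 1448228_at, annotated to the same record, overlapped between the groups and gave -0.74 (adjusted p = 0.0471) and -0.67 (adjusted p = 0.0794). Its call against transgenic tissue was lost without dysplasia 3, 4 or 5 or without transgenic 1, 2, 3 or 4 (adjusted p 0.0742 to 0.106), without transgenic 2 and dysplasia 4 together (0.192), without the signal limit (0.0782) and with Xist as a covariate (0.0788). Another Lox probe set, 1437903_at, read 21.6 or less on every array and was not tested.

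Loxl1 encodes lysyl oxidase-like 1, the family member that works with fibulin-5 on elastin. It read 2023, 1748, 2118, 1910.0 and 2198 in dysplasia, against 3050.0, 3241, 3319.6, 3924 and 3706 in transgenic and 4159, 3592, 3179, 3688 and 3572 in non-transgenic tissue. Again the dysplasia arrays lay below all others. Loxl1 had a log2 change of -0.77 (SE 0.10, adjusted p = 0.000151) against transgenic and -0.85 (SE 0.10, adjusted p = 3.47e-05) against non-transgenic tissue. The dimmer 1436063_at gave -0.62 (adjusted p = 0.00816) and -0.60 (adjusted p = 0.0151), of which the second was lost after quantile normalization (adjusted p = 0.0588).

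**Figure D2:**
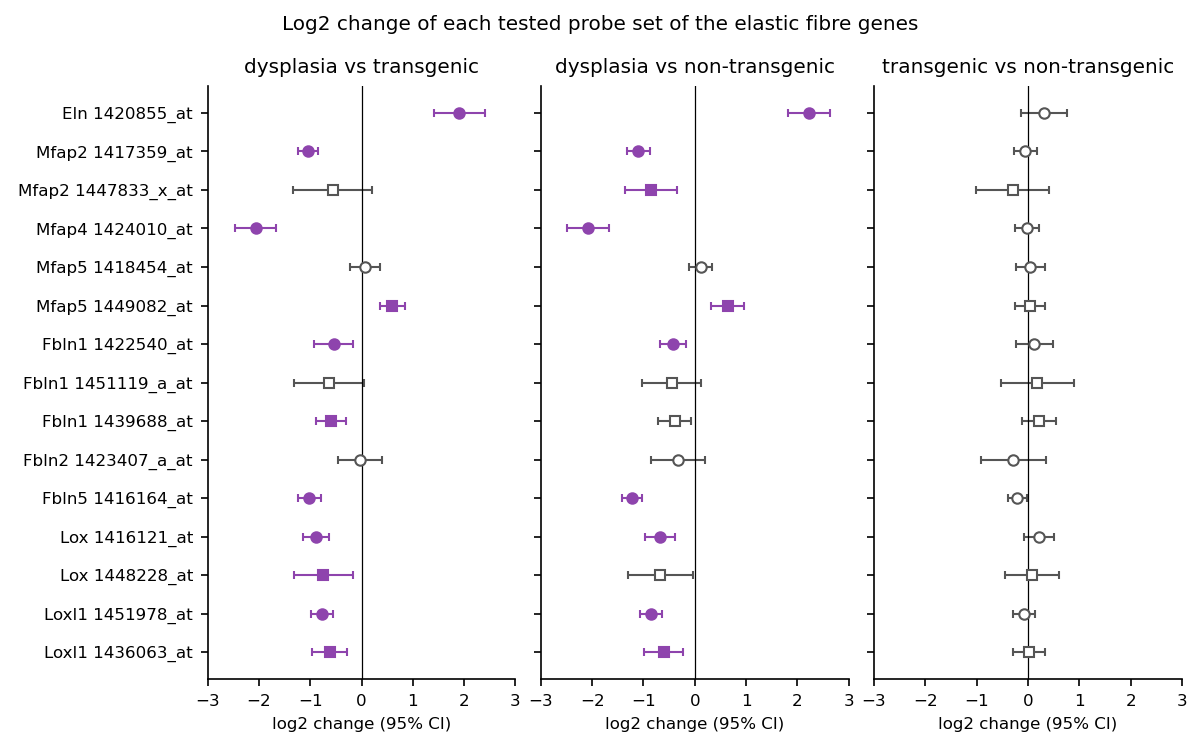
Log2 change (x axis, on the scale of log2(signal + 50)) with its 95% confidence interval for each of 15 probe sets of the elastic fibre genes that also pass the signal limit without the dysplasia arrays, in dysplasia against transgenic, dysplasia against non-transgenic and transgenic against non-transgenic tissue. Circles are the probe set that stands for the gene, squares the others, and filled symbols have an adjusted p under 0.05. Eln lies at 1.91 and 2.22 and Mfap4 at -2.06 and -2.08 in the first and second panel, and no symbol is filled in the third.

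Counted by probe set, 2 of 15 were higher and 9 lower in dysplasia than in transgenic tissue, beside 15.3% and 17.9% of all 21658 probe sets tested. Against non-transgenic tissue 2 were higher and 8 lower, beside 20.7% and 23.3%. Between transgenic and non-transgenic tissue 0 of 15 passed (limma), beside 1.26% of all probe sets. There 1 of the 15 had an unadjusted p under 0.05, beside 12.1% of all probe sets. At stricter limits, a limma adjusted p up to 0.001 and a change of 2-fold or more, 4 of the 9 genes were called in each dysplasia comparison, Eln higher and Fbln5, Mfap2 and Mfap4 lower. Of all genes 3.97% were higher and 6.85% lower at these limits against transgenic tissue, and 6.27% and 9.08% against non-transgenic tissue. The 5 dysplasia arrays did not overlap with the transgenic arrays for 1 gene higher and 5 lower of the 9, beside 14.7% and 16.6% of all genes. Against the non-transgenic arrays this held for 1 gene higher and 6 lower, beside 19.4% and 20.5% of all genes.

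**Figure D3:**
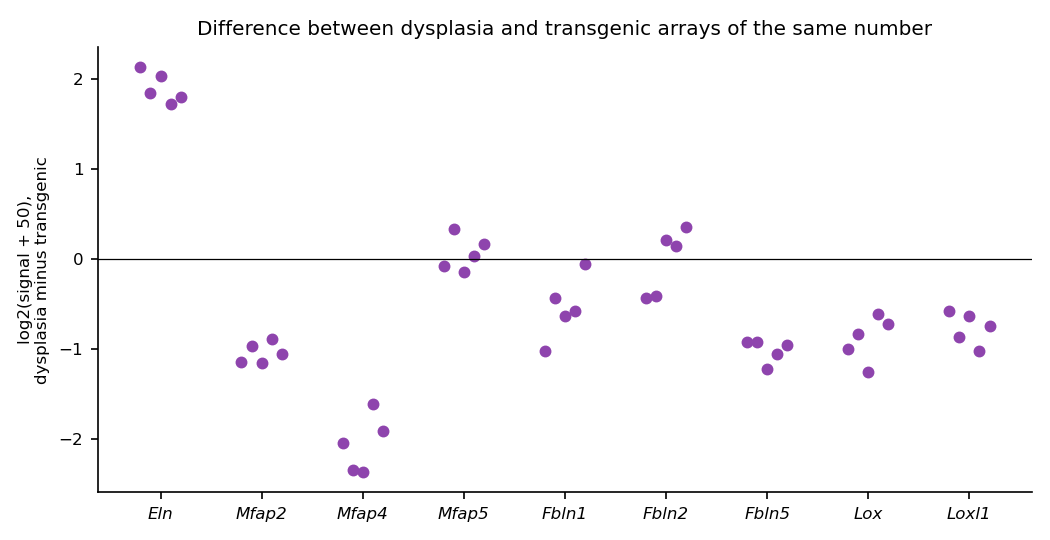
Difference in log2(signal + 50) between the dysplasia and the transgenic array of the same number (y axis) for the brightest probe set of 9 elastic fibre genes, 1 point per number. All 5 points lie above 0 for Eln and below 0 for Mfap2, Mfap4, Fbln1, Fbln5, Lox and Loxl1, and they lie on both sides for Mfap5 and Fbln2.

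The direction was shared by all array numbers for 7 of the 9 genes. The dysplasia array minus the transgenic array of the same number was -1.62 to -2.37 for Mfap4, -0.92 to -1.23 for Fbln5, -0.89 to -1.16 for Mfap2, -0.61 to -1.26 for Lox and -0.58 to -1.02 for Loxl1 on the log2 scale. For Fbln1 it was -0.05 to -1.02, with the smallest difference at number 5. Mfap5 was higher in 3 and lower in 2 numbers, and so was Fbln2. At number 4 the dysplasia array carried Xist (9674) and Y-linked transcripts (1088), while transgenic 4 had Xist at 85.0 and Y-linked transcripts at 2398. Whether that number stands for 1 mouse is not known.

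Among other genes of elastic fibres and microfibrils, more were lower than higher in dysplasia. Of a list of 23 such genes 17 had a tested probe set, and 3 were higher and 9 lower in dysplasia than in transgenic tissue, with a median log2 change of -0.58, beside 18.6% of all genes higher and 21.0% lower. The share higher was close to that of all genes. Against non-transgenic tissue 3 were higher and 10 lower (median -0.68), beside 24.7% and 26.0% of all genes. Between transgenic and non-transgenic tissue 0 of 17 passed (limma), and 3 had an unadjusted p under 0.05, beside 14.7% of all genes. The list was written with earlier results of these data known.

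Latent TGF-beta binding proteins resemble fibrillins and sit on microfibrils. Ltbp1 read 266, 351, 318, 429 and 271 in dysplasia, against 897, 1207, 1333, 1166 and 961 in transgenic and 1248, 1608, 1377, 1263 and 1418 in non-transgenic tissue. Its groups did not overlap, and its log2 change was -1.63 (SE 0.15, adjusted p = 1.38e-05) against transgenic and -1.94 (SE 0.13, adjusted p = 8.61e-07) against non-transgenic tissue. Ltbp4, which in mice is needed for elastic fibre assembly in the lung, changed by -1.28 (adjusted p = 5.63e-05) and -1.44 (adjusted p = 5.45e-05). Ltbp2 went the other way, with 0.65 (adjusted p = 0.00142) and 0.64 (adjusted p = 0.00114).

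Efemp1, which encodes fibulin-3, averaged 2162 ± 759 in dysplasia, 7104 ± 811 in transgenic tissue and 7971 ± 365 in non-transgenic tissue (SD, n = 5 each). Its log2 change was -1.75 (SE 0.20, adjusted p = 5.56e-05) against transgenic and -1.92 (SE 0.19, adjusted p = 1.17e-05) against non-transgenic tissue. Adamtsl4, a secreted protein that binds fibrillin-1, changed by -1.21 (adjusted p = 5.08e-05) and -1.58 (adjusted p = 1.48e-06). Emilin1, a glycoprotein between the elastin core and its microfibrils, changed by -0.76 (adjusted p = 0.000528) and -0.80 (adjusted p = 0.000115). Atp7a, the copper pump that supplies lysyl oxidases, changed by -0.58 (adjusted p = 0.00249) and -0.78 (adjusted p = 0.000118).

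The members of this list that rose were Vcan, Glb1 and Ltbp2, and these were named after their values were seen. Vcan encodes versican, a large proteoglycan, and had a log2 change of 0.66 (adjusted p = 0.000531) against transgenic and 0.87 (adjusted p = 0.000205) against non-transgenic tissue from a dim base. Glb1 encodes beta-galactosidase, whose splice variant is the elastin binding protein, and had 0.54 (adjusted p = 0.00126) and 0.73 (adjusted p = 0.000359).

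**Figure D4:**
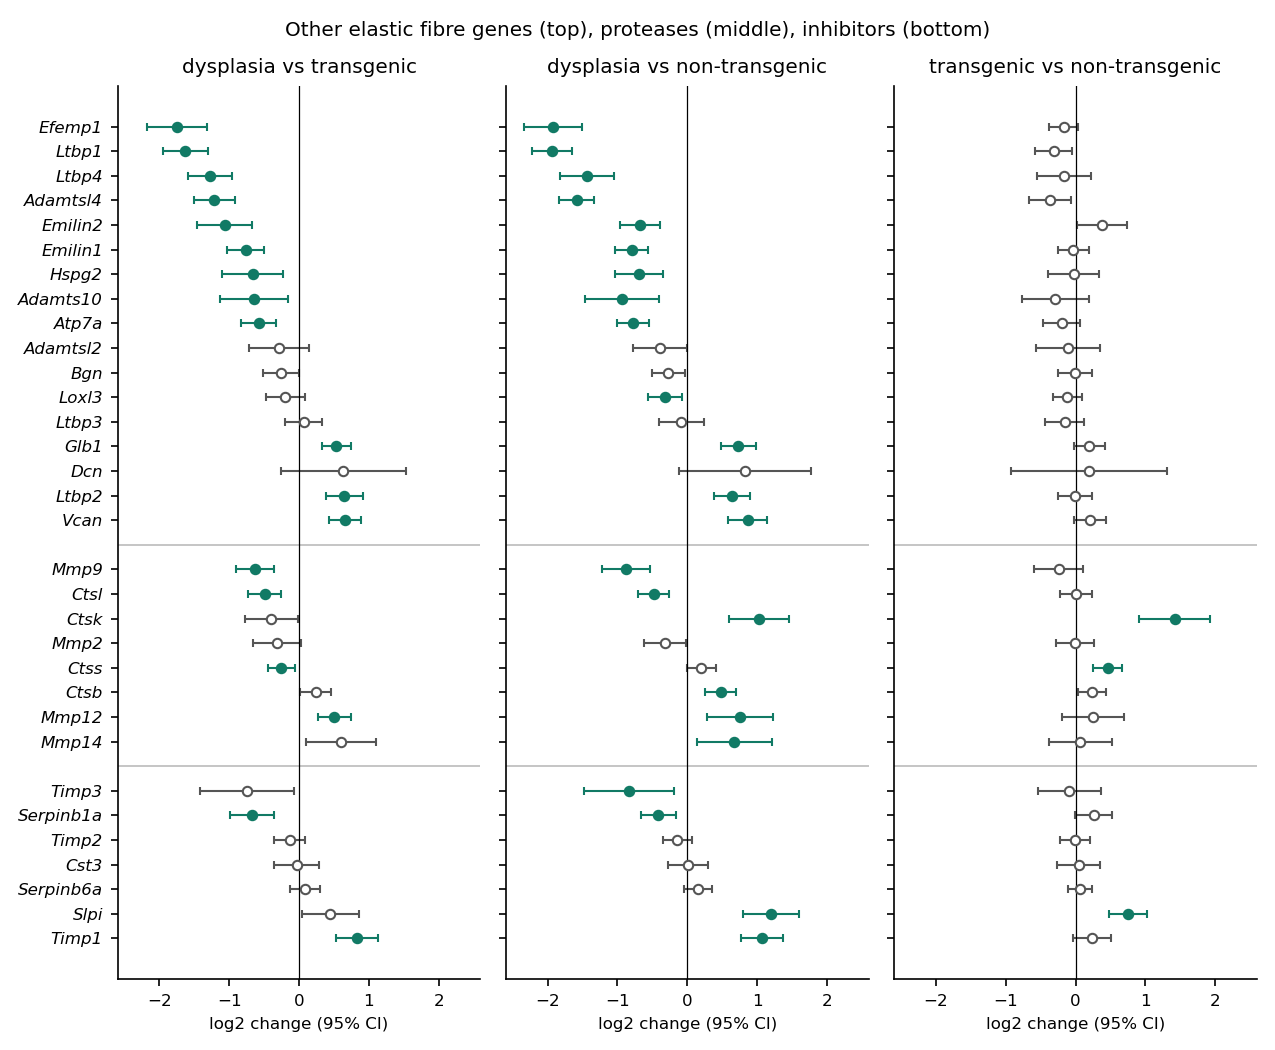
Log2 change with 95% confidence interval (x axis, on the scale of log2(signal + 50)) of 17 other elastic fibre and microfibril genes, 8 proteases that can degrade elastin and 7 of their inhibitors, by the brightest tested probe set, in the 3 comparisons. Filled circles have an adjusted p under 0.05, and in the first panel 9 of the 17 elastic fibre genes are filled to the left of 0 and 3 to the right.

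Of 12 proteases that can degrade elastin 8 were tested, and 1 was higher and 3 lower in dysplasia than in transgenic tissue, beside 18.6% and 21.0% of all genes. Against non-transgenic tissue 4 were higher and 2 lower, beside 24.7% and 26.0%. Nothing is read from these counts about the list. Mmp12, the macrophage metalloelastase, read 534, 508, 721, 539 and 625 in dysplasia, against 413, 404, 405, 409 and 347 in transgenic tissue and 263, 280.4, 205, 564 and 404 in non-transgenic tissue. It was above every transgenic array and overlapped with non-transgenic 4. The log2 change was 0.50 (SE 0.11, adjusted p = 0.00352) against transgenic and 0.75 (SE 0.21, adjusted p = 0.0145) against non-transgenic tissue. Mmp9, a gelatinase, was lower, with -0.64 (adjusted p = 0.00218) and -0.88 (adjusted p = 0.000825).

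Among the cathepsins, Ctsl changed by -0.49 (adjusted p = 0.0046) against transgenic and -0.48 (adjusted p = 0.00277) against non-transgenic tissue. Ctsb had 0.24 (adjusted p = 0.104) and 0.48 (adjusted p = 0.00258). Ctsk, which encodes cathepsin K, differed between transgenic and non-transgenic tissue. It read 1529, 1513, 1115, 1355 and 1508 in dysplasia, against 2244, 2413, 1554, 2022 and 1270.5 in transgenic tissue and 567, 555, 459, 844 and 1015 in non-transgenic tissue. The dysplasia and the transgenic arrays all lay above every non-transgenic array. The log2 change of transgenic against non-transgenic tissue was 1.42 (SE 0.23, adjusted p = 0.0141). With Xist as a covariate, since the groups differ in sex, it was 1.41 with a wider SE of 0.31 and did not pass (adjusted p = 0.102). Ctss was called in 2 comparisons, with -0.26 for dysplasia against transgenic tissue (adjusted p = 0.0464) and 0.46 for transgenic against non-transgenic tissue (adjusted p = 0.0496), and both calls were lost in most of the other settings (adjusted p up to 0.166 and 0.238).

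Of 9 inhibitors of these proteases 7 were tested, and 1 was higher and 1 lower in dysplasia than in transgenic tissue, while 2 were higher and 2 lower than in non-transgenic tissue, neither count set apart from the shares of all genes above. Timp1, an inhibitor of metalloproteinases, averaged 510.3 ± 96.3 in dysplasia, 263 ± 41.9 in transgenic tissue and 215 ± 35.5 in non-transgenic tissue (SD, n = 5 each), and no dysplasia array overlapped with the others. Its log2 change was 0.84 (adjusted p = 0.000677) against transgenic and 1.07 (adjusted p = 6.81e-05) against non-transgenic tissue. Slpi, a secreted inhibitor of neutrophil elastase, was higher in dysplasia than in non-transgenic tissue by 1.21 (adjusted p = 0.000273) and in transgenic than in non-transgenic tissue by 0.76 (adjusted p = 0.0149). The call between transgenic and non-transgenic tissue was lost with Xist as a covariate, at a change of 0.79 (SE 0.17, adjusted p = 0.0913). It was also lost without transgenic 3 or non-transgenic 1 or 3 (adjusted p 0.0511 to 0.0544). Serpinb1a, another inhibitor of elastase, was lower in dysplasia by -0.68 (adjusted p = 0.00335) against transgenic and -0.41 (adjusted p = 0.0126, and 0.0526 with Xist as a covariate) against non-transgenic tissue. Timp3 had -0.75 (adjusted p = 0.0874) and -0.83 (adjusted p = 0.0386), and the second call was lost without any 1 of 8 of the 10 arrays (adjusted p 0.0508 to 0.0843).

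Markers of cell types that can make elastic fibres were read on the same arrays. The summed signal of 15 fibroblast and mesenchymal markers ran from 46321 to 62866 in dysplasia, from 72732 to 94506 in transgenic tissue and from 77633 to 93376 in non-transgenic tissue, and 7 of the 15 were lower and 0 higher in dysplasia than in transgenic tissue, beside 21.0% and 18.6% of all genes, while 8 did not pass. Compared with non-transgenic tissue 8 were lower and 0 higher, beside 26.0% and 24.7%. The lower ones include Tcf21 with a log2 change of -2.71 (adjusted p = 2.91e-05), Col13a1 with -1.80 (adjusted p = 7.95e-07), Pdgfra with -1.38 (adjusted p = 7.24e-06) and Npnt with -0.84 (adjusted p = 0.000114). Tcf21 and Pdgfra mark lipofibroblasts and other alveolar fibroblasts. The collagen genes Col1a1 (0.02, adjusted p = 0.948) and Col3a1 (0.33, adjusted p = 0.0581), named after their values were seen, did not pass. No tested marker of these lists was at 0 on any array.

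Of all genes 18.6% were higher and 21.0% lower in dysplasia than in transgenic tissue, and 24.7% and 26.0% against non-transgenic tissue. Of 9 smooth muscle and pericyte markers 7 were lower than in transgenic and 9 lower than in non-transgenic tissue. Cspg4, Notch3, Des and Myh11 were among them. Their summed signal was 4980.4 to 8055 in dysplasia, 9358 to 12081 in transgenic tissue and 12712 to 15559 in non-transgenic tissue. The transgenic and non-transgenic sums thus did not overlap, and 1 of the 9 was called lower between these groups, beside 1.71% of all genes called. No marker of the other cell type lists passed there. All 17 endothelial markers were lower in dysplasia than in either group, with a summed signal of 27159 to 39897 in dysplasia, 77569.7 to 98846 in transgenic tissue and 89662 to 112886 in non-transgenic tissue. Of 6 mesothelial markers 5 were lower in both comparisons, Upk1b, Gpm6a and Upk3b among them, and Krt19, a keratin that epithelial cells also express, was higher by 1.36 against transgenic tissue (adjusted p = 4.18e-05). The summed mesothelial signal was 5647 to 7661 in dysplasia, 6413 to 7624 in transgenic tissue and 6505 to 8046 in non-transgenic tissue, so the sums overlapped. This sum includes Krt19, which rose, and does not follow the 5 markers that were lower. The part of these cell types in the changes of the elastic fibre genes was not tested. Of 9 alveolar type 2 markers 1 was higher in dysplasia than in transgenic tissue (Etv5, 0.50, adjusted p = 0.00313), which is not above the share of all genes. Against non-transgenic tissue 4 were higher, all 4 with no overlap, beside 19.4% of all genes higher with no overlap. In either comparison 0 were lower. Of 10 alveolar type 1 markers 1 was higher and 7 were lower in each comparison.

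**Figure D5:**
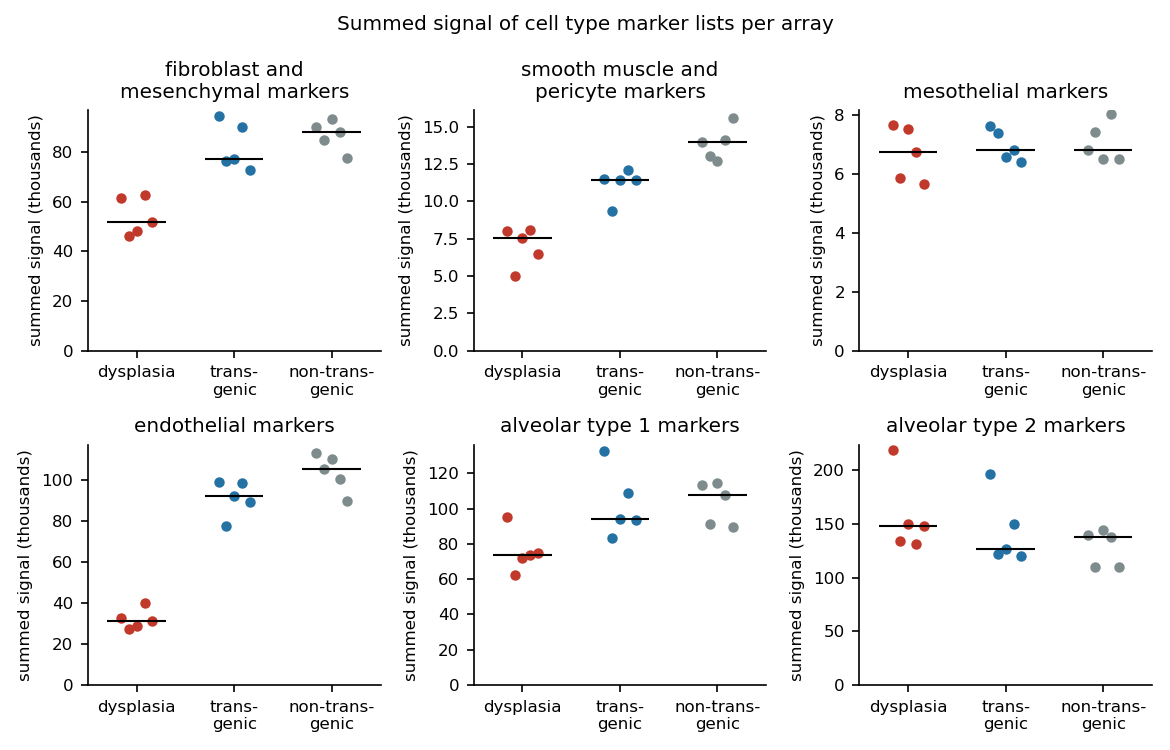
Summed signal of the tested genes of 6 cell type marker lists on every array (y axis linear, from 0, in kilounits of signal), with dysplasia on the left, transgenic in the middle and non-transgenic tissue on the right, and a line at the median of 5 arrays. The fibroblast, smooth muscle and endothelial sums lie lower on all dysplasia arrays than on all other arrays, with endothelial medians of 31101 in dysplasia, 92193 in transgenic tissue and 105180 in non-transgenic tissue.

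To place elastin and Mfap4 among all transcripts, the genes with the most similar course over the 15 arrays were listed, as a description without a test, since the points share mice and the groups set the course. The nearest to Eln were Liph (Pearson's r = 0.993), Foxq1 (0.988), Nectin2 (0.987), Cdc20 (0.983) and Ppa2 (0.982). Liph, a phospholipase, averaged 248 ± 34.3 in dysplasia, 104 ± 22.1 in transgenic tissue and 92.0 ± 14.1 in non-transgenic tissue (SD, n = 5 each). Cdc20, an activator of the anaphase-promoting complex in dividing cells, averaged 3222 ± 603 in dysplasia, 1049.6 ± 215 in transgenic tissue and 709 ± 186 in non-transgenic tissue. The nearest to Mfap4 were Mgll (0.995), Art3 (0.994), Septin4 (0.992), 2410004I01Rik (0.991) and Parvb (0.991). Mgll, which encodes monoglyceride lipase, averaged 657 ± 131 in dysplasia, 2430.3 ± 299 in transgenic tissue and 2522 ± 219 in non-transgenic tissue (SD, n = 5 each).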

How the data were processed

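RNA from laser-microdissected tissue was run on Affymetrix Mouse Genome arrays, which carry 45101 probe sets. The authors made the deposited signal intensity with GCOS (version not given in the sources used here), scaled to a target of 500 on each array. The mean after trimming 2% of values at each end was 500.0 on all arrays. After 64 control probe sets were left out, the array annotation gave 34945 of the rest 1 gene symbol, 932 several and 9160 none.

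All 21658 probe sets whose signal averaged more than 100 across the arrays were fitted as log2(signal + 50) with limma 3.58.1 in R 4.3.3, on the 10 arrays of each comparison and unpaired. The methods of the study name SAM, a permutation test of 2 unpaired classes, and limma was used here in its place. They give 5 SP-C/c-raf and 5 non-transgenic mice, so the arrays of a group were taken as separate mice. For dysplasia 4, which carried both Xist and Y-linked transcripts, this is not sure. P-values were adjusted over all tested probe sets (Benjamini-Hochberg), with a threshold of 0.05. Fold sizes are on the log2(signal + 50) scale, which understates changes of dim genes. The brightest tested probe set stood for a gene.

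Dysplasia and transgenic samples share mice, but neither labels nor methods say that a number marks a mouse. Deviations from the group means of dysplasia and transgenic arrays with the same number correlated with r = 0.219 to 0.773 (mean 0.612), against a mean of -0.15 for other numbers, and all 10 arrays correlated best with their own number. Transgenic and non-transgenic arrays gave 0.135 to 0.793. The block on array number was therefore an alternative, given where it changes a call. Other alternatives were an offset of 16, quantile or total-signal normalization, no signal limit or 200, all 15 arrays in 1 fit, an intensity trend, the actin ratio as a covariate, the most variable probe set, an adjusted p up to 0.001 with a 2-fold change (after the cut-offs of the methods, whose SAM FDR is not a limma adjusted p) and leaving out each array. Xist as a covariate and leaving out transgenic 2 with dysplasia 4 were added after the data were seen. The members, lists and rules were chosen with earlier results of these data known. By rule all 10 genes and the 5 nearest genes to Eln and Mfap4 were named. Genes of the lists were chosen by the smallest p, up to 6 of each pathway list and 4 of each marker list. Not all of those chosen from the lists are named above. Dcn stands in both the elastic fibre and the fibroblast list. Promoter sequences are from RefSeq (GRCm38.p6).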

Additional observations from a re-analysis of the deposited data

Results flagged for a closer look

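In dysplasia the Fbln2 probe set 1423407_a_at read 77.0 on array 5, far from the next value of 107, with a gap of 0.786 of the range of the 5 arrays. Of 48 groups of 5 arrays looked at, 1 had such an array, and chance alone gives about 1 in 20.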

How the results depend on the processing

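With an adjusted p up to 0.001 and a 2-fold change, 4 elastic fibre genes were called in dysplasia against each of transgenic and non-transgenic tissue, and 1823, 2694 and 9 probe sets were called in the 3 comparisons, against 7192, 9523 and 272 at an adjusted p under 0.05. In no other setting did the count of elastic fibre genes in a dysplasia comparison leave 6 to 7. Leaving out 1 array gave 6 to 7 elastic fibre genes against transgenic tissue and 7 against non-transgenic tissue. Between transgenic and non-transgenic tissue all alternatives gave 0 elastic fibre genes, while the count of probe sets was 506 with the actin ratio and 110 with Xist as a covariate, and 118 to 291 without 1 array (147 without transgenic 2, 123 without transgenic 3, and 126, 143, 118 and 179 without non-transgenic 1, 2, 3 and 4). With the most variable probe set of each gene, 2 genes were higher and 4 lower in both dysplasia comparisons. The higher ones were Eln and Mfap5. The lower ones were Fbln5, Mfap4, Loxl1 and Lox against transgenic tissue, with Mfap2 in place of Lox against non-transgenic tissue. Fbln1 was then called in neither comparison.

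Log2 changes that turned sign were all of uncalled genes near 0. Fbln2 against transgenic tissue gave 0.034 with quantile normalization and 0.051 without transgenic 2 and dysplasia 4, and -0.19 to 0.083 without 1 array. Mfap5 1418454_at gave -0.093 without transgenic 2 and dysplasia 4, and -0.038 to 0.13 without 1 array. Between transgenic and non-transgenic tissue Mfap4 gave 0.14 with Xist as a covariate and -0.089 to 0.029 without 1 array, and Mfap5 -0.014 to 0.15 without 1 array. The cause was not tested. With the array number as a replicate block, Fbln1 1451119_a_at (-0.63) passed against transgenic tissue. Against non-transgenic tissue, which came from other mice, Fbln1 1451119_a_at, Fbln1 1439688_at and Lox 1448228_at passed with the block. It changed no other call of the 15 probe sets counted. 5 arrays a group limit the precision, and signals near 100 lie close to background.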
